A study of Mus musculus with 8 samples.

Results

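Heat shock proteins and the DnaJ cochaperones that work with them were followed in mouse skin material labelled Adam10 wildtype or Adam10 knockout. Adam10 is the membrane protease that cuts Notch receptors and other surface proteins. The members are the genes whose symbol begins with Hspa, Hspb, Hspd, Hspe or Hsph and a number, with Hsp90, or with Dnaja, Dnajb or Dnajc and a number, taken from probe sets annotated with exactly 1 gene symbol. There were 70 such genes among 19935 measured, 25 heat shock proteins and 45 DnaJ proteins. They were represented by 93 probe sets, of which the one with the highest mean was kept per gene. Another 10 probe sets carry a member's symbol together with that of another gene and were not used for the members, so Hspa1b was seen only in a probe set shared with Hspa1a. Hsp90ab1 and the heat shock factor Hsf1 were not analysed here. Expression was measured on Affymetrix Mouse Gene 1.0 arrays, 1 per sample, in 4 samples labelled Adam10 wildtype and 4 labelled Adam10 knockout. The knockout titles read cKO, a usual short form for a conditional knockout. The labels call the material both primary skin cells and mouse skin, and no source used here names the driver of the deletion, the deleted exons, the sex or the strain. Each title also carries a P and a number, 57 to 60 on wild-type arrays 1 to 4, 67 to 69 on knockout arrays 1 to 3 and 55 on knockout array 4. The labels do not say whether these numbers are animals or ages. If they are ages, the groups differ in age, and age and genotype cannot be told apart. Nothing in the labels says that each sample is a separate animal, so the p-values measure the spread between these samples, which may be technical.

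Chaperones bind proteins that are not folded and keep them from clumping. HSP70 proteins do so in cycles of ATP hydrolysis, which DnaJ proteins start through their J domain and nucleotide exchange factors such as the HSP110 and BAG proteins end. HSP90 proteins finish the folding of kinases and receptors, chaperonins fold proteins inside a closed chamber, and small heat shock proteins hold unfolded clients without using ATP. Each compartment of the cell has its own set. Damage to proteins in the cytosol raises the cytosolic set through heat shock factors, while trouble in the endoplasmic reticulum raises another set through the unfolded protein response.

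Adam10 lay at 7.39, 7.33, 7.06 and 7.34 on the 4 wild-type arrays and at 6.85, 7.00, 7.04 and 6.79 on the 4 knockout arrays (log2 intensity, in the order of arrays 1 to 4). All knockout values were the lower ones, by 22.0% in the mean. An exact permutation test over the arrays, two-sided, gave p = 0.0286, which is the lowest value possible with 70 assignments, and the adjusted p over all genes in limma, a linear model with moderated variances, was 0.064, above the threshold of 0.05. Array medians ran from 13.3 to 15.1 intensity units. Wild-type arrays 3 and 4 carried more muscle and dermal signal than the other wild-type arrays, and array 4 also more adipocyte signal. The 20 of 20 skeletal muscle markers measured, none of them at 0, summed to 380, 431, 1463 and 9036 intensity units on wild-type arrays 1 to 4 and to between 327 and 391 on the knockouts. The 9 of 10 dermal fibroblast markers measured summed to between 836 and 7473 in wild type and between 1076 and 1163 in knockout, and the 9 of 10 adipocyte markers to 112, 149, 137 and 1768 on wild-type arrays 1 to 4 and to between 95.7 and 118 in knockout, again with none at 0. Macrophage markers (11 of 12 measured, none at 0) summed to between 413 and 692 in wild type and between 208 and 289 in knockout. Basal keratinocyte markers (10 of 10, none at 0) summed to between 7855 and 10695 and between 13541 and 15352. Cell cycle markers (11 of 12, none at 0) summed to between 1001 and 1046 and between 1378 and 1552. Spinous and granular markers (7 of 10, none at 0) lay between 17057 and 21910 in wild type and between 17122 and 19240 in knockout. Melanocyte markers (8 of 8) summed to between 436 and 617 in wild type and between 771 and 1064 in knockout, hair follicle markers (10 of 10) to between 1568 and 2016 and between 2469 and 2895, and sebocyte markers (7 of 8) to between 219 and 511 and between 130 and 192, with none at 0. In such bulk samples fewer cells of a type and less RNA per cell cannot be told apart. What part the basal keratinocyte, cell cycle, macrophage, melanocyte, hair follicle and sebocyte shifts had in the results on members was not tested.

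The chaperone genes did not move as a block. In the knockout samples 6 of the 70 members rose and 3 fell in limma (adjusted p under 0.05 over all genes). That is 12.9% of the members beside 8.75% of all genes, 6.41% higher and 2.34% lower. The members are brighter than most genes, with 54 of the 70 at or above the median level, and all 9 calls lay there. That is 16.7% of those 54, and 15.2% of all 9968 genes at that level passed, so the share called was near the background of equally bright genes. The groups did not overlap for 16 members, 13 higher and 3 lower, or 22.9% beside 18.1% of all genes (12.2% higher and 5.86% lower). At or above the median level it was 27.8% of members and 28.5% of genes. The median difference, knockout minus wild type, was 0.018 on the log2 scale for the members and 0.0027 for all genes, and at or above the median level 0.078 for members and 0.115 for genes. The 6 that rose were Hspb8, Hspa4l, Dnajb1, Hspa1a, Hsp90aa1 and Dnajc14, and the 3 that fell were Hspa12a, Dnaja4 and Hsph1. By compartment, 5 of 40 cytosolic and nuclear members rose and 2 fell. Of 8 members assigned to no compartment 1 rose (Dnajc14, known from the membrane of the endoplasmic reticulum) and 1 fell (Hspa12a). None of 12 members assigned to the endoplasmic reticulum and none of 10 assigned to the mitochondrion passed in limma. At an unadjusted p under 0.05 in limma were 1 of the 12 and 1 of the 10, both higher. Over all 19935 genes 5008 were under that unadjusted p, 3254 higher and 1754 lower.

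**Figure D1:**
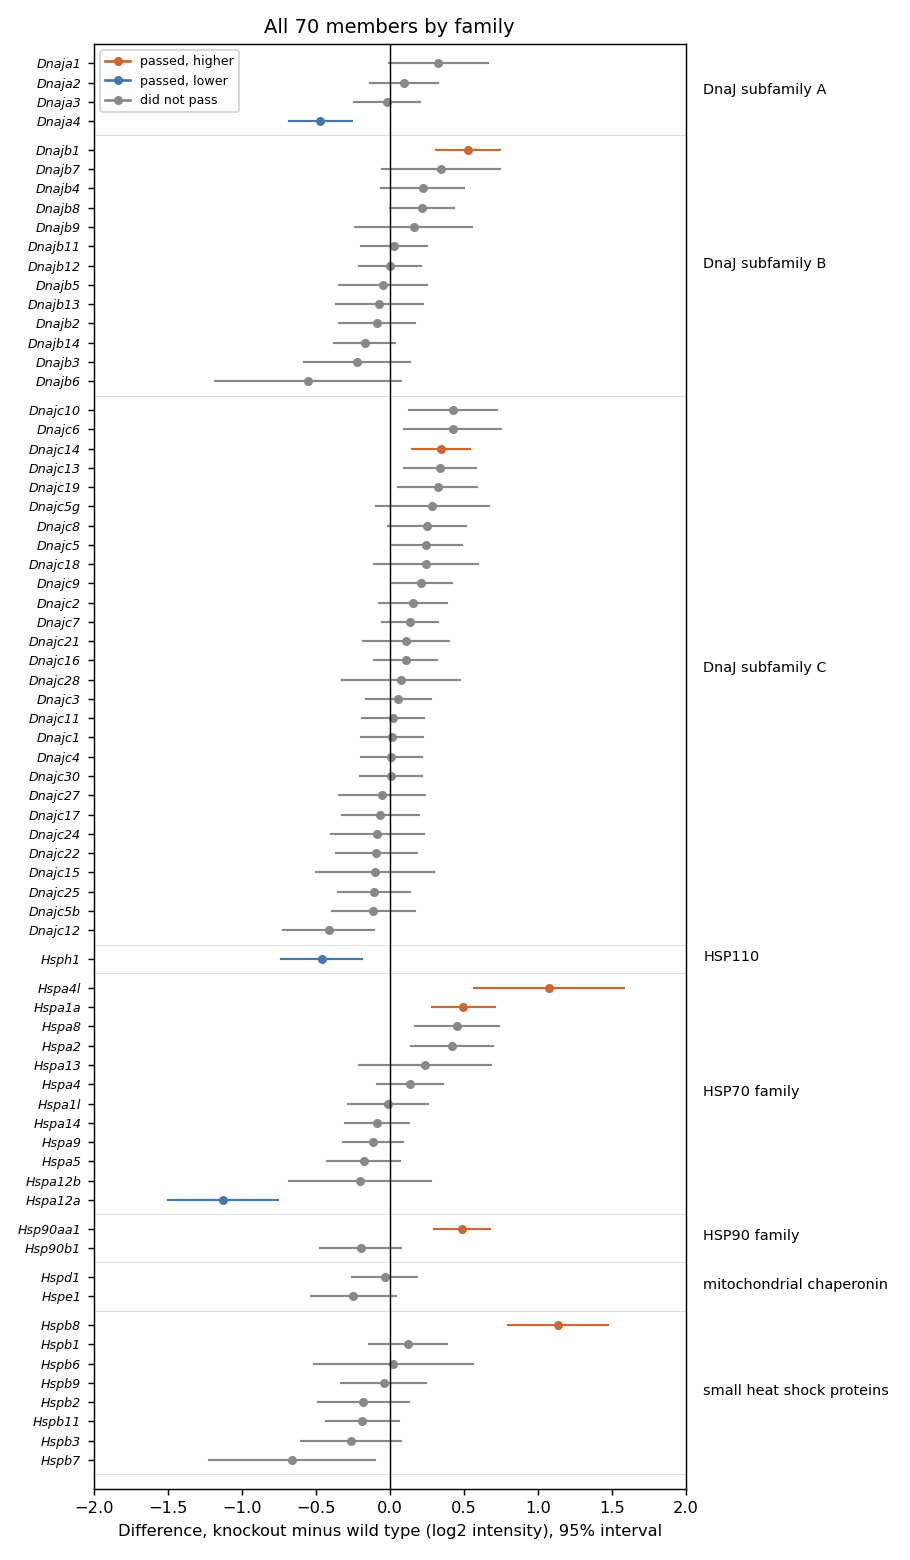
The difference of each of the 70 members, knockout minus wild type on the log2 intensity scale, is drawn with its 95% interval from limma, grouped by family. Orange marks the 6 members that passed toward higher values, blue the 3 that passed toward lower values and grey the 61 that did not pass, most of which lie close to 0.

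Among the 8 members counted as small heat shock proteins by their symbol, Hspb11 included, Hspb8 rose, and it had the largest rise of all members. Hspb8 (probe set 10533050) pairs with BAG3 to send damaged proteins to autophagy. It lay at 8.16, 7.48, 7.64 and 7.58 in wild type and at 8.90, 9.02, 8.67 and 8.81 in knockout (log2 intensity). The 4 knockout values all lay above the highest wild-type value, that of array 1. The means were 7.71 ± 0.30 and 8.85 ± 0.15 (SD, n = 4), a 2.20-fold rise (difference 1.14, SE 0.15, adjusted p = 0.0031 in limma). The call held with each array left out in turn (highest adjusted p = 0.017), without both wild-type arrays 3 and 4 (1.03, adjusted p = 0.016) and with the muscle markers as a covariate (1.02, adjusted p = 0.0066). Hspb1, the abundant small heat shock protein of keratinocytes, ran from 9.88 to 10.25 in wild type and from 10.14 to 10.45 in knockout. Its difference of 0.12 had a 95% interval of -0.14 to 0.39 and did not pass (adjusted p = 0.56).

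Hspb2, Hspb6, Hspb7 and Cryab, small heat shock proteins known from muscle, were each highest on wild-type array 4, the array with the most skeletal muscle signal. That array was also highest for dermal, adipocyte, smooth muscle and endothelial markers. Smooth muscle and pericyte markers (7 of 7) summed to 111, 120, 155 and 520 on wild-type arrays 1 to 4. Endothelial markers (8 of 8) summed to 80.5, 95.5, 128 and 449. Which of these tissues the 4 genes follow was not tested. Hspb7, a muscle protein, lay at 3.28, 3.73, 4.13 and 4.69 on wild-type arrays 1 to 4, in the same order as the summed muscle markers, and between 3.11 and 3.53 in knockout. Its difference was -0.66 with all arrays (adjusted p = 0.13) and -0.21 without wild-type arrays 3 and 4. Hspb6, also of muscle, lay at 4.53, 4.97, 5.12 and 5.95 in wild type and between 5.02 and 5.25 in knockout. The wild-type values spanned the whole knockout range, and the difference was 0.024 (adjusted p = 0.96). It was 0.42 (adjusted p = 0.15) without wild-type arrays 3 and 4 and 0.49 (adjusted p = 0.046) with the muscle markers as a covariate. Cryab, a small heat shock protein outside the symbol rule, lay at 5.11, 4.55, 5.57 and 6.61 in wild type and between 5.59 and 5.79 in knockout. Its difference of 0.23 (adjusted p = 0.72) became 0.86 (adjusted p = 0.018) without wild-type arrays 3 and 4 and 0.90 (adjusted p = 0.011) with the covariate. Hspb2, the divergently transcribed neighbour of Cryab, also moved upward without wild-type arrays 3 and 4, from -0.18 to 0.022. It did not pass in either fit. Hspb3, another small heat shock protein known from muscle, did not peak with array 4. Its wild-type values were 3.52, 3.78, 4.20 and 3.68 for arrays 1 to 4, with array 3 highest and array 4 below array 2. The knockout values ranged from 3.36 to 3.78, and the difference was -0.26 (adjusted p = 0.31).

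**Figure D2:**
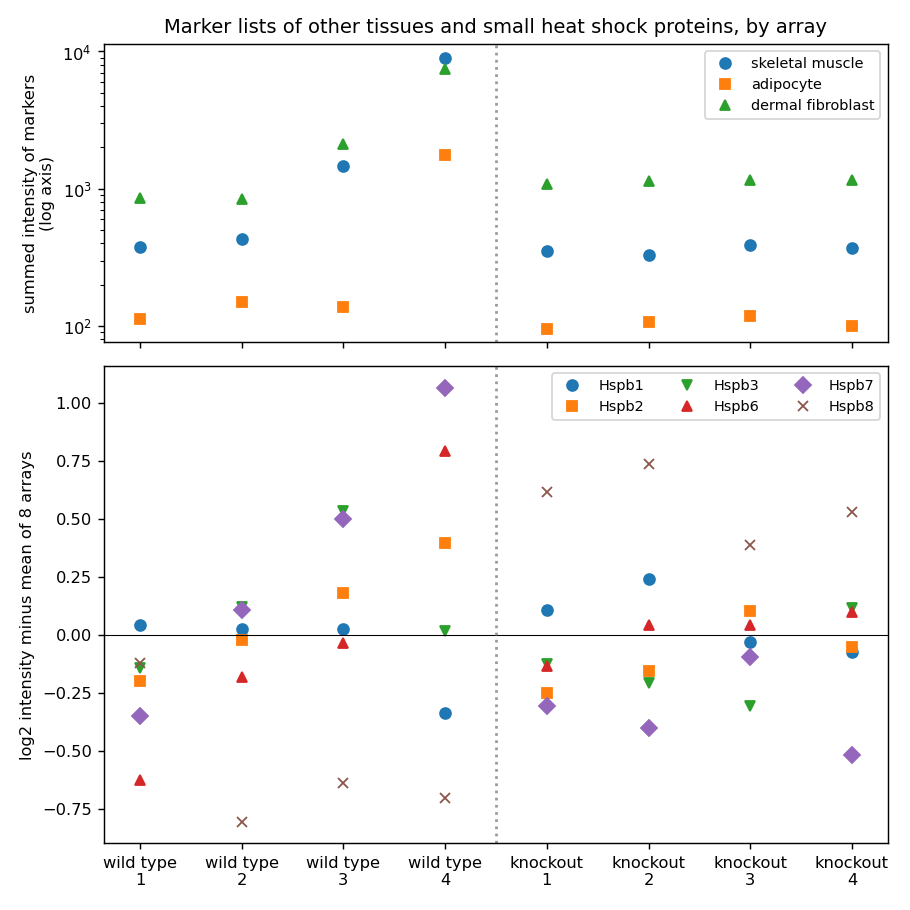
The upper panel gives the summed linear intensity of the skeletal muscle, adipocyte and dermal fibroblast markers on each array, on a log axis, and the lower panel the log2 intensity of 6 small heat shock proteins on each array minus their mean over the 8 arrays. Muscle markers sum to 9036 on wild-type array 4 and 1463 on array 3, where Hspb7 is also at its highest, while Hspb8 separates the groups instead.

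The HSP70 family split. Of 12 members 2 rose, 1 fell and 9 did not pass. That is 25% called, beside 8.75% of all genes and 15.2% of genes at or above the median level. Hspa1a (probe set 10450369), the cytosolic HSP70 that heat induces, lay at 6.02, 5.82, 6.02 and 5.89 in wild type and at 6.56, 6.47, 6.40 and 6.31 in knockout. The groups were apart, with means of 5.94 ± 0.10 and 6.44 ± 0.10 (SD, n = 4), a 1.41-fold rise (difference 0.50, SE 0.096, adjusted p = 0.013). It missed the threshold without knockout array 2 (adjusted p = 0.053). Hspa1a and Hspa1b are near-identical copies, and the probe set annotated to both lay between 7.69 and 8.02 in wild type and between 8.27 and 8.80 in knockout, a difference of 0.75 (SE 0.14) with an adjusted p of 0.031 in limma over all probe sets. How each copy contributed cannot be told apart. Hspa8, the constitutive cytosolic HSP70, lay at 9.81, 9.99, 10.06 and 10.23 in wild type and at 10.48, 10.67, 10.55 and 10.20 in knockout. Wild-type array 4 and knockout array 4 overlapped, and the difference of 0.45 (SE 0.13) just missed the threshold (adjusted p = 0.054). Without wild-type array 4 it passed, at 0.52 (adjusted p = 0.028). Hspa2, the HSP70 of spermatocytes, differed by 0.42 (adjusted p = 0.064).

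Hspa4l, counted with HSP70 by its symbol, and Hsph1 both belong to the HSP110 group that exchanges nucleotide on HSP70, and they moved in opposite directions. Hspa4l (probe set 10491780) lay at 4.86, 4.75, 4.77 and 4.63 in wild type and at 6.02, 6.10, 6.19 and 5.01 in knockout. Knockout array 4 stood far below the other knockouts and only a little above wild type. The difference was 1.08 (SE 0.23, adjusted p = 0.019), or 2.11-fold. Without knockout array 4 it was 1.35 (adjusted p = 0.00043), and the call was lost when wild-type array 2 or 3 or when knockout array 1, 2 or 3 was left out (highest adjusted p = 0.073) and without both wild-type arrays 3 and 4 (adjusted p = 0.075). Hsph1 lay at 5.46, 5.93, 5.78 and 6.02 in wild type and at 5.33, 5.29, 5.39 and 5.34 in knockout. Wild-type array 1 was close to the knockouts, which varied little. The fall of 0.46 on the log2 scale (SE 0.12, adjusted p = 0.046) was called with all arrays and without wild-type array 1 (adjusted p = 0.011), and lost without any of the other 7 arrays (highest adjusted p = 0.13), without both wild-type arrays 3 and 4 (-0.36, adjusted p = 0.20) and with the muscle covariate (-0.32, adjusted p = 0.17). The third cytosolic relative, Hspa4, differed by 0.14 (95% interval -0.087 to 0.36, adjusted p = 0.43).

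Hspa12a, a distant relative of HSP70 with an atypical ATPase domain, had the largest fall of the members. Its values (probe set 10468746) were 5.21, 5.04, 5.21 and 4.75 in wild type and 3.71, 4.00, 3.65 and 4.34 in knockout. The groups were apart, with wild-type array 4 and knockout array 4 the nearest to each other. The difference was -1.13 (SE 0.17, adjusted p = 0.0046), 2.18-fold lower in knockout. It held with each array left out in turn (highest adjusted p = 0.021), with the muscle covariate (-1.28) and without wild-type arrays 3 and 4 (-1.20, adjusted p = 0.0098).

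Hsp90aa1, the inducible cytosolic HSP90, rose with little spread in either group. It lay at 9.14, 9.16, 9.06 and 9.05 in wild type and at 9.65, 9.58, 9.53 and 9.61 in knockout. The means were 9.10 ± 0.059 and 9.59 ± 0.051 (SD, n = 4), a 1.40-fold rise (difference 0.49, SE 0.084, adjusted p = 0.0082). Each fit with 1 array left out kept the call (highest adjusted p = 0.034), and leaving out both wild-type arrays 3 and 4 gave 0.44 (adjusted p = 0.056). The other 2 probe sets of the gene differed by 0.47 and 0.45. Hsp90b1, its relative in the endoplasmic reticulum, lay between 8.93 and 9.30 in wild type and between 8.68 and 9.13 in knockout and did not pass (-0.20, 95% interval -0.47 to 0.079, adjusted p = 0.35). A direct test between these 2 genes was not made.

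**Figure D3:**
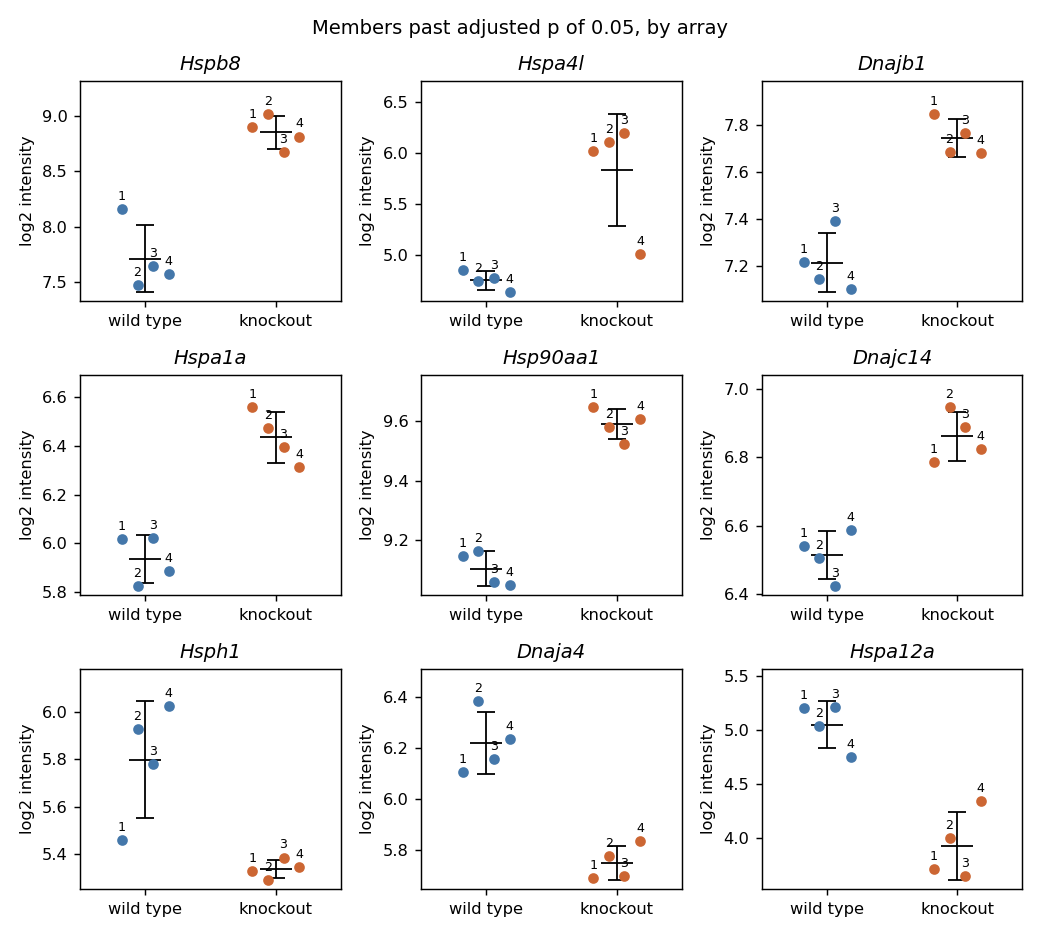
Log2 intensity of the 9 members that passed is plotted for each array, numbered 1 to 4 within wild type (blue) and knockout (orange), with the mean and SD of each group (n = 4) in black. The groups are apart in every panel, narrowly for Hspa4l, where knockout array 4 is at 5.01, and for Hsph1, where wild-type array 1 is at 5.46.

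Promoter sequences of 57 of the 70 members were found by symbol in a RefSeq table of build GRCm38.p6 that covers 250 bases before to 50 after each start. They were searched for the heat shock element in its form of 3 units (GAA, TTC and GAA in turn, or TTC, GAA and TTC on the other strand, with any 2 bases between units). It was present for 4 of the 57 members (7.02%), Hsph1, Hspd1, Hspe1 and Dnajb6, and for 88 of all 15612 measured genes in that table (0.564%). The form of 2 units (GAA, any 2 bases and TTC, or TTC, any 2 bases and GAA), which every match of 3 units contains, was present for 15 of 57 members (26.3%) and 15.4% of the measured genes. Hsp90aa1 had no entry in the table. Of the other 8 members that passed, Hspa1a, Dnaja4, Hsph1 and Hspb8 held the form of 2 units, and of these Hspa1a and Hspb8 rose and Dnaja4 and Hsph1 fell. The stretches upstream of the start are shown for Hspa1a, Dnaja4 and Hsph1 because these members moved in both directions, with the units in capitals. Hspa1a is read from the minus strand of chr17:34972233-34972280, Dnaja4 from the plus strand of chr9:54699449-54699534 and Hsph1 from the minus strand of chr5:149636342-149636389.
Hspa1a: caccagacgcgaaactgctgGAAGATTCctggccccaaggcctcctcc
Dnaja4: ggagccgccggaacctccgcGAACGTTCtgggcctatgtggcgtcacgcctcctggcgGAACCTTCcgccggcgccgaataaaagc
Hsph1: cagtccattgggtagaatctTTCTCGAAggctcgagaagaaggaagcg
The Hspa1a match ends 97 bases before the start, and Dnaja4 has 2 matches. The Hspb8 match and the form of 3 units in Hsph1 lie after the start and are not shown. A match describes these letters and is not a measured binding site.

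The mitochondrial chaperonin, Hspd1 with its lid Hspe1, did not pass. Both genes are transcribed from a shared region in opposite directions, and the same stretch upstream of both, at chr1:55088039-55088096 and shown on the plus strand as it precedes Hspe1, holds 2 overlapping heat shock elements of 3 units in capitals.
Hspe1 and Hspd1: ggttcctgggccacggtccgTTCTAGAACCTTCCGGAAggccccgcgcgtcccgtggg
Hspe1 lay at 8.79, 8.72, 8.63 and 9.22 in wild type and at 8.53, 8.57, 8.65 and 8.63 in knockout. Wild-type array 4 was the highest, knockout array 3 lay above wild-type array 3, and the difference was -0.25 (SE 0.13, adjusted p = 0.27). Hspd1 differed by -0.034 (95% interval -0.25 to 0.19, adjusted p = 0.86), so a change of the size seen for Hspa1a lies outside its interval. Neither member of this class had an unadjusted p under 0.05.

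In the endoplasmic reticulum the ER stress element (CCAAT, any 9 bases and CCACG, searched on both strands) was found for 3 of the 57 members, Hspa5, Hsp90b1 and Dnajc3, and for 21 of the 15612 measured genes (0.135%). Hspa5 is the HSP70 of that compartment, known as BiP, and Dnajc3 is a DnaJ protein of its lumen. The stretches of Hspa5 (chr2:34772005-34772063, plus strand) and Dnajc3 (chr14:118937807-118937865, plus strand) are printed because both genes belong to the set that stress in this compartment raises, with the element in capitals.
Hspa5: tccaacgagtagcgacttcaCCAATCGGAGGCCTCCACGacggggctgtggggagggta
Dnajc3: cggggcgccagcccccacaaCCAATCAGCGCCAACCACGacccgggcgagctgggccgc
None of the 3 genes with the element passed in limma, and none had an unadjusted p under 0.05. Hspa5 lay at 8.22, 8.48, 8.56 and 8.69 in wild type and between 8.24 and 8.35 in knockout (-0.17, 95% interval -0.42 to 0.071, adjusted p = 0.35). Dnajc3 lay between 7.17 and 7.35 in wild type and between 7.13 and 7.42 in knockout (0.058, adjusted p = 0.75). Dnajc10, a DnaJ protein of the lumen that reduces disulfides, had groups that did not overlap, with 6.54, 6.24, 6.33 and 6.86 in wild type and 6.93, 6.99, 6.88 and 6.89 in knockout. Its difference was 0.43 (SE 0.13, adjusted p = 0.076), and it passed without wild-type array 4 (0.55, adjusted p = 0.0092).

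Among the DnaJ proteins of subfamilies A and B, which carry the J domain at their start, 1 of 4 and 1 of 13 passed. Of all genes 8.75% passed, and of those at or above the median level 15.2%. Dnajb1, the heat-inducible partner of HSP70 in the cytosol, lay at 7.22, 7.14, 7.39 and 7.10 in wild type and at 7.85, 7.68, 7.76 and 7.68 in knockout. All knockout values were above all wild-type values, and the rise was 1.44-fold (difference 0.53, SE 0.097, adjusted p = 0.010). It held with each array left out (highest adjusted p = 0.038) and without wild-type arrays 3 and 4 (adjusted p = 0.026). Dnaja4, a cytosolic type A cochaperone linked to cholesterol synthesis, moved the other way, from 6.11, 6.38, 6.15 and 6.23 to 5.69, 5.78, 5.70 and 5.83. It fell by 27.7% (difference -0.47, SE 0.095, adjusted p = 0.016), with the call lost without knockout array 1, 2 or 3 (highest adjusted p = 0.054) and without both wild-type arrays 3 and 4 (adjusted p = 0.056). Dnaja1, the main cytosolic type A protein, lay between 6.49 and 7.06 in wild type and between 6.73 and 7.17 in knockout (0.33, adjusted p = 0.21). It passed with the muscle covariate (0.54, adjusted p = 0.040). A brighter probe set annotated to Dnaja1 and Mir207, with means of 9.37 in wild type and 9.21 in knockout, had the opposite sign (-0.16, SE 0.092) and did not pass.

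Subfamily C, a mixed group that shares little beyond the J domain, had 28 members, of which 1 rose and 0 fell in limma. That is 3.57% called, beside 8.75% of all genes. At an unadjusted p under 0.05 in limma 7 were higher and 1 lower, beside 3254 higher and 1754 lower of all 19935 genes. Of the 28 differences 20 were above 0, with a median of 0.091. The median of all genes was 0.0027, and that of genes at or above the median level 0.115. The subfamily median was 0.027 under quantile normalization and 0.019 under cyclic loess, beside 0.015 and -0.0020 for all genes. Dnajc14, which binds the dopamine receptor and was assigned to no compartment in the counts, rose from 6.54, 6.51, 6.42 and 6.59 to 6.79, 6.95, 6.89 and 6.82 (difference 0.35, SE 0.087, adjusted p = 0.036). That call was lost in 7 of the 8 fits with 1 array left out, all but the one without wild-type array 4 (highest adjusted p = 0.12), and also under quantile normalization, cyclic loess, the muscle covariate and without both wild-type arrays 3 and 4. Dnajc6 (auxilin, which uncoats clathrin vesicles) and Dnajc13 (of endosomes) differed by 0.43 and 0.34, with groups that did not overlap and adjusted p of 0.10 and 0.087. Dnajc19, of the inner mitochondrial membrane, differed by 0.32 (adjusted p = 0.13) and passed without wild-type array 4 (0.44, adjusted p = 0.016). Dnajc12 differed by -0.41 (adjusted p = 0.096).

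**Figure D4:**
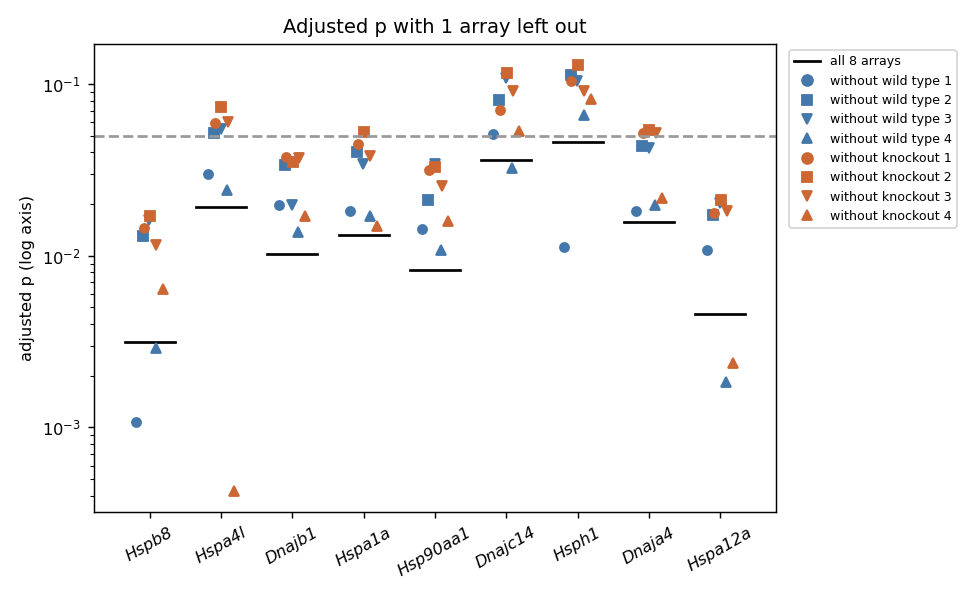
The adjusted p of the 9 members that passed is shown on a log axis with all 8 arrays (black bar) and with each array left out in turn (blue for a wild-type and orange for a knockout array), and the dashed line is the threshold of 0.05. Hspb8, Dnajb1, Hsp90aa1 and Hspa12a stay below the line in all 8 fits, while Dnajc14 and Hsph1 are above it in 7.

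Probe sets of 1 member alone gave differences of the same sign for each of the 8 members with several, and shared probe sets often did not. The 3 probe sets of Hspa8 differed by 0.41 to 0.45, and the 15 of Dnajc13 by 0.022 to 0.40, all above 0. Both of Dnajc3 held identical values and count as 1 measurement. For Dnajb6 the shared sets went the other way. Its kept probe set lay between 3.07 and 3.92 in wild type and between 2.11 and 3.42 in knockout (difference -0.55, SE 0.28, adjusted p = 0.25). The 4 probe sets annotated to Dnajb6 together with Gm4247 lay far higher, the brightest between 8.33 and 8.62 in wild type and between 8.57 and 8.89 in knockout, and differed by 0.22 to 0.26, none of them past the threshold. The 2 probe sets shared by Hspa8 and small nucleolar RNAs of its introns also had the opposite sign to Hspa8 (-0.24 and -0.20, SE 0.33 each), with wild-type array 1 at 5.75 and the other arrays between 4.04 and 4.57 in the first. The 2 sets shared by Dnajb14 and Pin4 differed by 0.18 and 0.20, against -0.17 for the kept Dnajb14 set, and none of these passed.

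**Figure D5:**
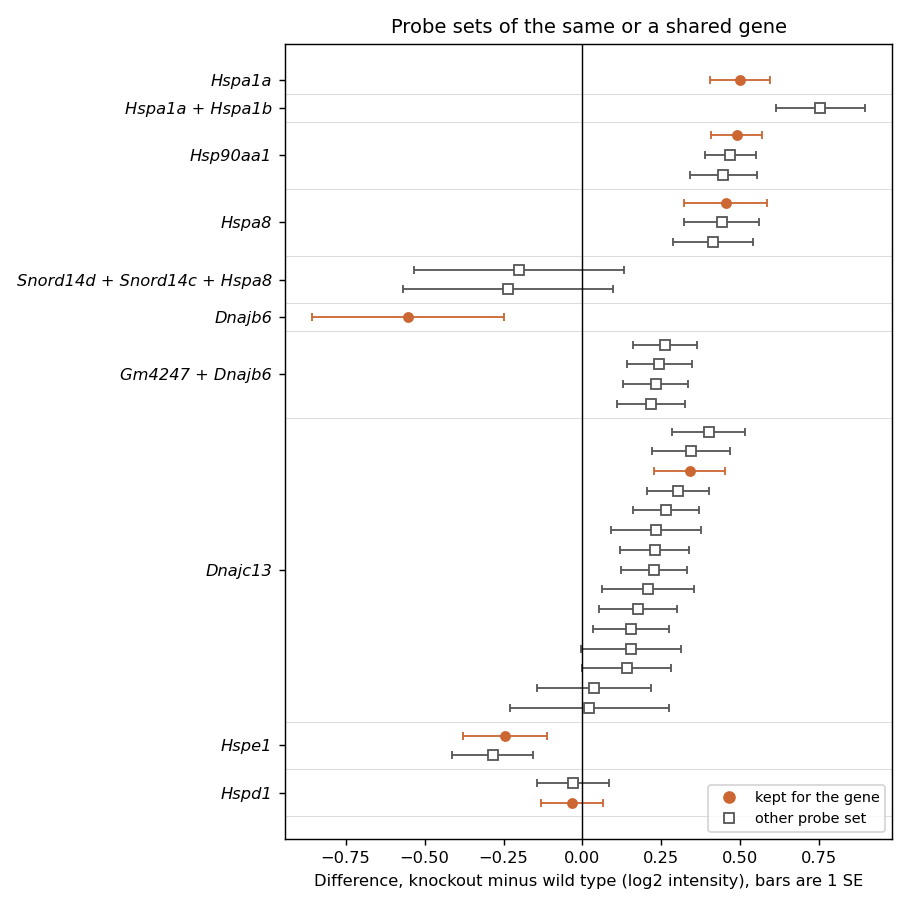
Differences of single probe sets, knockout minus wild type on the log2 intensity scale with bars of 1 SE, are drawn for members with several or shared probe sets, filled where the probe set was kept for the gene. The 4 sets shared by Dnajb6 and Gm4247 lie at 0.22 to 0.26 while the kept Dnajb6 set lies at -0.55.

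In 6 lists of partners of these chaperones 7 of 96 genes passed, 2 higher and 5 lower. That is 7.29%, beside 8.75% of all genes and 15.2% of genes at or above the median level. Of 21 HSP70 and HSP90 cochaperones 0 passed in limma and 3 had an unadjusted p under 0.05, all higher. The lowest p there was that of the HSP90 partner Ppid (0.30, adjusted p = 0.10). Over all 19935 genes 5008 had an unadjusted p under 0.05 in limma, 3254 higher and 1754 lower. Of 6 BAG proteins, which release the client from HSP70, Bag2 fell from between 5.48 and 5.79 in wild type to between 4.85 and 5.05 in knockout (-0.70, SE 0.10, adjusted p = 0.0044). The other 5 did not pass in limma. At an unadjusted p under 0.05 in this list, 2 were higher and 1, Bag2, was lower. Of 17 subunits of the cytosolic chaperonin and of prefoldin 0 passed in limma and 4 had an unadjusted p under 0.05, 3 of them higher. Their median was 0.11, beside 0.115 for all genes at or above the median level, 15 were above 0 and Cct2 came nearest (0.27, adjusted p = 0.077). Of 6 measured heat shock factors and their binding proteins Hsf4, a factor best known from the lens, was lower (4.17 to 4.44 against 3.87 to 4.09, adjusted p = 0.046), a call lost under quantile normalization (adjusted p = 0.11) and in 6 of the 8 fits with 1 array left out.

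Of 27 measured genes of folding in the endoplasmic reticulum and the unfolded protein response 1 rose and 3 fell. That is 14.8%, beside 8.75% of all genes and 15.2% of genes at or above the median level. Sdf2l1, which works with BiP, fell from between 5.98 and 6.31 to between 5.39 and 5.75 (-0.59, SE 0.11, adjusted p = 0.012), a call lost without wild-type arrays 3 and 4 (-0.51, adjusted p = 0.068). Herpud1, a part of the degradation pathway of that compartment, differed by -0.80 (SE 0.20, adjusted p = 0.034), and Xbp1, the transcription factor of the response, by -0.48 (SE 0.13, adjusted p = 0.043). Herpud1 was lost in 6 and Xbp1 in 6 of the 8 fits with 1 array left out, and Xbp1 moved to -0.27 (adjusted p = 0.23) without wild-type arrays 3 and 4. Ppp1r15a, the phosphatase subunit known as GADD34, rose by 0.40 (SE 0.095, adjusted p = 0.030), a call also lost in 6 of the 8, under quantile normalization, under cyclic loess, over all probe sets and without wild-type arrays 3 and 4 (adjusted p = 0.083). Of 19 mitochondrial import and chaperone partners Grpel2, the nucleotide exchange factor of mitochondrial HSP70, rose and 0 fell. Its values went from 6.22, 5.93, 5.92 and 5.73 to 6.81, 6.93, 6.94 and 6.82, a 1.90-fold rise (difference 0.92, SE 0.11, adjusted p = 0.0025).

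Of 15 other measured genes listed as induced by heat 8 rose and 0 fell, with a median of 0.49. That is 53.3% beside 8.75% of all genes and 15.2% of genes at or above the median level. Among the 8 were the immediate early genes Atf3 (1.34, adjusted p = 0.0038) and Jun (1.03, adjusted p = 0.0056). Egr1 (0.93, adjusted p = 0.0074) and Fosb (0.85, adjusted p = 0.017) are immediate early genes too, and all of these encode transcription factors. The rest of the 8 were Mcl1, Gadd45b, Dusp1 and Sqstm1. The other 7 did not pass in limma, and 3 of the 15 differences were below 0. These 7 were Gadd45a (0.30), Fos (0.28), Dedd2 (0.17), Hmox1 (0.079), Serpinh1 (-0.026), Ier5 (-0.14) and Rgs2 (-0.37). Whether the rises are particular to a heat-type response was not tested. The list was drawn up with earlier results of these samples known and is no independent evidence of its direction.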

How the data were processed

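For every array the authors deposited linear intensity values by probe set, produced with RMA (background correction, normalization between arrays and a summary per probe set) per the submitters' processing notes. No source used here gives its version or settings, or a genome build. The values ran from 0.817 to 11173, and log2 of the deposited values was taken with no pseudocount. The platform annotation gives 1 gene symbol to 21780 of 35519 probe sets, several to 1605 and none to 12134. The probe set with the highest mean was kept for each of 19935 genes, with no filter on dim genes. All 70 member symbols matched RefSeq of GRCm38.p6 through Entrez identifiers. The 4 knockout and 4 wild-type arrays entered a linear model on genotype (R 4.3.3, limma 3.58.1, lmFit and eBayes, two-sided), and p-values were adjusted over all genes by Benjamini-Hochberg. Every adjusted p comes from limma. The fit was tested on simulated data.

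Members, gene lists and alternatives were chosen with earlier results of these data known. The rule named the members that passed, the lowest p of a family with none, and up to 2 genes per direction of each partner list. Hspb1, Hspb2, Hspb3, Hspb6, Hspb7, Hspa2, Hspa4, Hspa5, Hspa8, Hspd1, Hsp90b1, Dnaja1, Dnajb6, Dnajc3, Dnajc6, Dnajc10, Dnajc12, Dnajc13, Dnajc19 and Xbp1, and the outlying Dnajc5g, Dnajc8 and Dnajc11, were named after their values were seen. Alternatives were 3 other scalings, a filter on dim genes, other uses of probe sets, another prior, array weights, an offset of 16, other thresholds, a muscle covariate and arrays left out. Arrays give no depth, and their number limits the precision.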

Additional observations from a re-analysis of the deposited data

Results flagged for a closer look

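In a group of 4 arrays, 1 value lay far from the other 3 for 6 of the 140 groups of members and in 1 of the 2 groups of Adam10, by a gap above Dixon's 95% critical value. Chance gives about 1 such group in 20. Hspa4l on knockout array 4 was at 5.01, below the 6.02 to 6.19 of the other knockouts. Hspb1 on wild-type array 4 was at 9.88, below 10.24 to 10.25. Dnajc8, a DnaJ protein of the spliceosome, was low on wild-type array 2 (6.47, the others 6.85 to 6.92) and high on knockout array 4 (7.19, the others 6.98 to 7.01). Dnajc11 was low on knockout array 3 (6.18, the others 6.33 to 6.35). Dnajc5g was high on knockout array 4 (2.79, the others 2.05 to 2.10), a member below the 25th percentile of all 8 arrays. Adam10 was low on wild-type array 3 (7.06, the others 7.33 to 7.39). Of the 6 groups of members, 3 had knockout array 4 as the far value and 1 had wild-type array 4.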

How the results depend on the processing

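No paired analysis was possible because the labels give the groups no shared replicate numbers. The 6 rises and 3 falls of members became 14 and 2 under median centring, which put the median of all genes at 0.10, 10 and 3 without dim genes, 12 and 6 with array weights, 10 and 2 with the muscle covariate, and 5 and 1 without wild-type arrays 3 and 4. At a threshold of 0.01 they were 2 and 1, at 0.10 they were 10 and 4. With 1 array left out rises ran from 3 (without knockout array 2) to 9 and falls from 1 (without knockout array 1, 2 or 3) to 4. Calls over all genes numbered 1744, and 2739 under median centring, 1099 over all probe sets, 3621 with array weights, 478 at 0.01, 2958 at 0.10, 925 without wild-type arrays 3 and 4 and 587 (without knockout array 2) to 1997 (without wild-type array 4) with 1 array left out. The share of rises among them was 73.2%, 63.0% under quantile normalization, 56.9% under cyclic loess and 89.6% under median centring. The members' median of 0.018 became 0.12 under median centring, -0.017 under cyclic loess, -0.0073 under quantile normalization and 0.078 without dim genes. Adam10 passed under quantile normalization (-0.46), cyclic loess (-0.49), an offset of 16 (-0.32), and, at -0.36, without dim genes, with a trended prior or at 0.10. It ran from -0.43 to -0.32 with 1 array left out. Without wild-type arrays 3 and 4, 11 of the 70 members turned sign, none of them called. Of the genes named in the text, 6 turned sign under some alternative, none of them called in the fit of all 8 arrays. With 1 array left out Hspb6 ran up to 0.29, Cryab up to 0.61 and Hspd1 down to -0.089. Hspb6 was at -0.017 under quantile normalization, -0.022 under cyclic loess, -0.0016 with the offset, and -0.18, -0.032 and -0.0047 without wild-type array 1 or 2 or knockout array 4. Hspd1 was at 0.068 under median centring, 0.061 with array weights, 0.033 with the covariate and 0.027 without wild-type array 4. Dnajc3 was at -0.043 under quantile normalization and -0.076 under cyclic loess. Hspb1 was at -0.021 and Hspb2 at 0.027 with the covariate, Hspb2 at 0.022 without wild-type arrays 3 and 4, and Cryab at -0.075 without wild-type array 2. These causes were not tested.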
